A study of Mus musculus with 15 samples.

Results

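The genes of antigen presentation by the major histocompatibility complex (MHC) were followed in the gastrocnemius muscle of aged mice after downhill running. The 10 members were taken by symbol from a fixed list, 5 of MHC class II (H2-Aa, H2-Ab1, H2-Eb1, Cd74, Ciita) and 5 of MHC class I (H2-K1, H2-D1, B2m, Tap1, Nlrc5). All 10 were found among the 55450 genes counted, and all 10 were among the 16920 genes with enough counts to be tested. The mice were 15 aged females (over 17 months) of the C57BL/6JN strain with 1 library each: 4 robust and 3 frail mice kept sedentary in their cages (Low Control and High Control), and 4 robust and 4 frail mice taken 24 h after running (Low Run and High Run). Robust (Low) mice had at most 1 positive frailty marker and frail (High) mice at least 2. Running comprised 2 bouts on a treadmill declined by 22 degrees, at speeds of up to 13 m/min. All mice were unmodified animals of the same strain and sex, and the frailty groups were observed rather than induced. Whole muscle was sequenced. For every gene below, a change in the number of cells of a type and a change in RNA per cell thus cannot be told apart.

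MHC class I molecules present peptides from inside the cell and are made by nearly all nucleated cells. Their heavy chains (H2-K1 and H2-D1 among the members) pair with β2-microglobulin (B2m), and the transporter subunit Tap1 brings peptides from the cytosol to them. MHC class II molecules present peptides from engulfed material and are made mainly by dendritic cells, macrophages and B cells. H2-Aa and H2-Ab1 encode the 2 chains of I-A, H2-Eb1 encodes the β chain of I-E, and Cd74 is the invariant chain that chaperones them. Ciita and Nlrc5 are related transcriptional activators, Ciita of class II and Nlrc5 of class I genes. Interferon-γ is a known inducer of both classes. In build GRCm38 (mm10), 6 of the members lie on chromosome 17, in the mouse MHC: H2-K1 (33996017 to 34000347), Tap1 (34187553 to 34197225), H2-Ab1 (34257689 to 34269419), H2-Aa (34282744 to 34287823), H2-Eb1 (34305867 to 34316674) and H2-D1 (35262730 to 35267499). B2m lies on chromosome 2 (122147686 to 122153083), Nlrc5 on chromosome 8 (94434356 to 94527272) and Ciita on chromosome 16 (10480059 to 10528418). In resting muscle, the fibres themselves make little MHC, and much of the class II signal of whole muscle is usually attributed to resident immune cells.

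Totals ranged from 19395125 to 30699216 counts per mouse, so that 1 count was worth between 0.0315 and 0.0501 CPM (counts scaled to a total of 1000000). The 5 muscle fibre markers (Acta1, Ckm, Myh4, Mylpf, Ttn) summed to between 90859 and 152206 CPM, and markers of macrophages, endothelial cells and fibroblasts were above 0 in every mouse. Fibre sums were 107130 to 152206 CPM in Low Control and 106341 to 132687 CPM in Low Run mice. In High Control mice they were 127152 to 146710 CPM, above every High Run mouse (90859 to 120511 CPM). Whether this difference in High mice bears on the members was not tested. Apart from Ighm, which had 35.4 to 833 CPM, lymphocyte markers were low except in 1 mouse. Low Run mouse D61 had 16.4 CPM summed over Ms4a1, Cd79a, Cd79b and Cr2 of B cells, against 0.207 to 2.81 in the other 14 mice, and 13.6 CPM summed over 5 T cell markers, against 0.295 to 2.43. Whether lymphoid tissue was part of that sample was not tested, so its class II and Ciita values may not stand for muscle alone. The members and the counts over gene lists in Low mice are therefore also given without D61. The labels name no batch.

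On a scale that adjusts for gene length (CPM per kb of exon), B2m had the highest level in Low Control mice, at 154 ± 53.5 (SD, n = 4). The length merged all annotated exons of a gene, whichever transcripts the muscle made, so close ranks depend on it. H2-D1 followed at 55.1 ± 11.1, H2-K1 at 38.2 ± 8.96 and Cd74 at 34.6 ± 12.4 CPM per kb. The chains H2-Eb1, H2-Ab1 and H2-Aa stood at 11.0 ± 4.04, 9.12 ± 2.83 and 6.33 ± 2.13 CPM per kb. In CPM not divided by length, however, H2-Aa was above H2-Eb1 in each of these mice. Tap1 was lower still at 1.45 ± 0.965, Nlrc5 at 0.411 ± 0.346 and Ciita at 0.126 ± 0.0465 CPM per kb. Of the neighbours in this order, H2-K1 and Cd74 differed by less than either SD, as did H2-Eb1 and H2-Ab1. The transcripts of the activators were thus the scarcest members: Ciita had 8 to 266 counts and Nlrc5 31 to 216 counts per mouse, whereas B2m had 2201 to 7711. H2-K1, H2-D1 and other class I heavy chains share much of their sequence, and since only uniquely aligned reads were counted, the split of reads among them is uncertain.

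The promoters are shown because members of each class varied together across mice. RefSeq windows from 250 bases before to 50 bases after the start site (build GRCm38.p6, which is mm10) were matched for 6 of the 10 members: H2-Aa, H2-Eb1, H2-K1, H2-D1, B2m and Tap1. Promoters of class I and class II genes are known to share a module in which X2, a box resembling the cAMP response element, is followed by the Y box, an inverted CCAAT element. Each stretch below runs 5′ to 3′ on the strand of its gene and ends 15 bases after the Y box. Capitals mark the Y box letters ATTGG and the X2-like letters TGACG, each searched on both strands, so that they can also appear as their complement. Capitals also mark a κB site (the run near the start of H2-K1 and H2-D1) and an interferon response element (a pair of GAAA repeats with any 2 bases between them), searched in the same way.
H2-Aa, chr17:34287852-34287976, minus strand: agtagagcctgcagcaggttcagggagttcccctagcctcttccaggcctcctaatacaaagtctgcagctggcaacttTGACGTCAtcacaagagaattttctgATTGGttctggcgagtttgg
H2-Eb1, chr17:34305703-34305827, plus strand: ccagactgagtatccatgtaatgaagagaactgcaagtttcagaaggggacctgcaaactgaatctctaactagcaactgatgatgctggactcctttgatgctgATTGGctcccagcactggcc
H2-K1, chr17:34000344-34000468, minus strand: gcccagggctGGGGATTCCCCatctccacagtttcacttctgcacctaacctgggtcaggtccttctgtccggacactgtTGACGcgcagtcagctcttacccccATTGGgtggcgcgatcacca
H2-D1, chr17:35262913-35263037, plus strand: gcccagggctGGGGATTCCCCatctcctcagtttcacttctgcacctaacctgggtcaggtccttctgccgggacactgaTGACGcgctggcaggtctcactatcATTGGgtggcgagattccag
B2m, chr2:122147529-122147653, plus strand: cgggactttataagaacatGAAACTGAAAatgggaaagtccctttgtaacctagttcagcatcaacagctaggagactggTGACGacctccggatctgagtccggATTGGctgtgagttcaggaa

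In H2-Aa, H2-K1, H2-D1 and B2m, TGACG stood 20 or 21 bases upstream of ATTGG on the same strand, a combination that 54 of all 32851 windows held (0.164%). It was spelled out after these sequences had been seen, so its rarity is a description. TGACG alone was in 20.8% and ATTGG alone in 37.4% of all windows, on either strand. In the H2-Aa stretch the capitals TGACGTCA hold TGACG on both strands, overlapping. H2-Eb1 had the ATTGG element without TGACG in its window. The κB site was in the stretches of both heavy chains, H2-K1 and H2-D1, which share 109 of 125 letters (87.2%), and in 10 of all windows (0.0304%). The interferon response element, in the spelling searched, was found in B2m and in 3.44% of all windows. Other spellings of such elements were not searched, so the unmarked stretches are not shown to lack one. These are matches of letters, and no binding was measured.

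Tap1 is read in the opposite direction from its neighbour Psmb9, an immunoproteasome subunit, and the RefSeq windows of both genes share 275 bases, printed on the strand of Tap1 with the same marks.
Tap1 and Psmb9, chr17:34187306-34187580, plus strand: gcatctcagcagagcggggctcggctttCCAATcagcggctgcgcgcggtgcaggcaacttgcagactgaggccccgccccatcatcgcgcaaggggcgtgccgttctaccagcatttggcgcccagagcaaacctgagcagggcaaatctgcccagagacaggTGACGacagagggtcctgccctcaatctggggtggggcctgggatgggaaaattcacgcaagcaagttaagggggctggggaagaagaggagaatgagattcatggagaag
This stretch held CCAAT and TGACG once each, without the spacing of the other members. The annotated spans of the pair overlap by 212 bases on opposite strands, and the counting used strand.

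In Low mice, all 10 members had higher means after running, and the class II genes differed most. H2-Aa, the α chain of I-A, had 29.8, 13.7, 31.2 and 21.5 CPM in Low Control mice D8, D9, D11 and D98 and 70.0, 86.2, 36.4 and 16.1 CPM in Low Run mice D57, D61, D66 and D68. D57 and D61 were above every control, D66 was just above the highest control, and D68 was among the lowest, so the groups overlapped. The mean went from 24.0 ± 8.09 to 52.2 ± 31.7 CPM (SD, n = 4 each), a log2 fold change of 1.12 ± 0.45 (SE) in edgeR's quasi-likelihood test (FDR = 0.358; exact permutation p = 0.2). D57 and D61 were also the highest of the 4 runners in the other class II genes.

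H2-Ab1, the partner chain of H2-Aa, had 29.2, 14.0, 29.1 and 21.5 CPM in the controls and 72.8, 79.3, 33.2 and 18.9 CPM in the runners, in the same order of mice. H2-Eb1 had 26.4, 12.0, 29.2 and 18.2 CPM in the controls and 66.4, 80.9, 26.6 and 14.1 CPM in the runners. Cd74, the invariant chain, had 73.9, 33.5, 76.7 and 48.0 CPM in the controls and 154, 192, 81.8 and 38.5 CPM in the runners. In each of them D57 and D61 stood well apart from the other 2 runners, and D68 lay within the range of the controls. D66 exceeded the highest control in H2-Ab1 and Cd74 but not in H2-Eb1. The log2 fold changes were 1.13 ± 0.46 for H2-Ab1, 1.13 ± 0.50 for H2-Eb1 and 1.00 ± 0.45 for Cd74, with unadjusted p between 0.0256 and 0.0405.

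Ciita, the class II activator, had 1.22, 0.58, 1.59 and 1.43 CPM in the controls and 2.82, 9.58, 2.34 and 0.40 CPM in the runners. D61 stood far above the next runner, and D68 was below every control. The log2 fold change was 1.66 ± 0.71 (FDR = 0.359; exact permutation p = 0.314). Without D61 it was 0.62, and those of H2-Aa, H2-Ab1, H2-Eb1 and Cd74 were 0.75, 0.82, 0.72 and 0.64, with unadjusted p between 0.103 and 0.344 for these 5 genes.

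The class I heavy chains differed less. H2-K1 had 107, 96.9, 151 and 94.3 CPM in the controls and 266, 189, 118 and 114 CPM in the runners. H2-D1 had 137, 133, 183 and 116 CPM in the controls and 296, 199, 141 and 166 CPM in the runners. Here D57, not D61, was the highest runner, and control D11 was above 2 of the 4 runners for either gene. The log2 fold changes were 0.61 ± 0.26 and 0.50 ± 0.21, both with an FDR of 0.358 (exact permutation p = 0.171 and 0.143).

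B2m, the light chain, had 123, 91.1, 198 and 117 CPM in the controls and 324, 187, 132 and 145 CPM in the runners (log2 fold change 0.57 ± 0.26, FDR = 0.367). Tap1, the peptide transporter, had 5.42, 3.60, 15.6 and 7.26 CPM in the controls and 22.7, 20.3, 9.16 and 6.42 CPM in the runners (0.88 ± 0.42, FDR = 0.372). Nlrc5, the class I activator, had 1.35, 1.86, 7.78 and 2.97 CPM in the controls and 6.73, 7.78, 4.01 and 2.16 CPM in the runners (0.57 ± 0.46, FDR = 0.548). Control D11 matched the highest runner in Nlrc5 and was above 2 of the 4 runners in Tap1. Without D11 the log2 fold change of Tap1 was 1.42 and that of Nlrc5 1.32, both under an unadjusted p of 0.05. Without D61 those of H2-K1, H2-D1, B2m, Tap1 and Nlrc5 were 0.55, 0.49, 0.58, 0.67 and 0.29. Without D57 those of H2-K1, H2-D1 and B2m were 0.32, 0.25 and 0.22, with unadjusted p between 0.179 and 0.331.

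None of the 10 members passed the FDR of 0.1 in Low Run against Low Control with edgeR, DESeq2, voom with sample quality weights or limma on the deposited transformed values. With edgeR 0% of the 16920 tested genes did so in this comparison, and with DESeq2 0.0374% of the 26711 genes to which it gave an FDR. At an unadjusted p under 0.05, 8 of 10 members were higher, all but Tap1 and Nlrc5, against 5.92% of all tested genes. The log2 fold change was above 0 in all 10 members and in 51.9% of all tested genes, with medians of 0.94 and 0.02. No member was free of overlap between the groups, against 3.35% of all tested genes that were higher without overlap, and two-sided exact permutation p ranged from 0.143 to 0.343, where 4 against 4 mice can give no less than 0.0286. The count of 8 moved with the mice included: it was 0 without control D9, 1 without control D98, runner D57 or runner D61, 4 without control D8 and 10 without control D11. It was 5 in a fit of only these 2 groups, 3 on the transformed values and 0 with voom's quality weights.

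**Figure D1:**
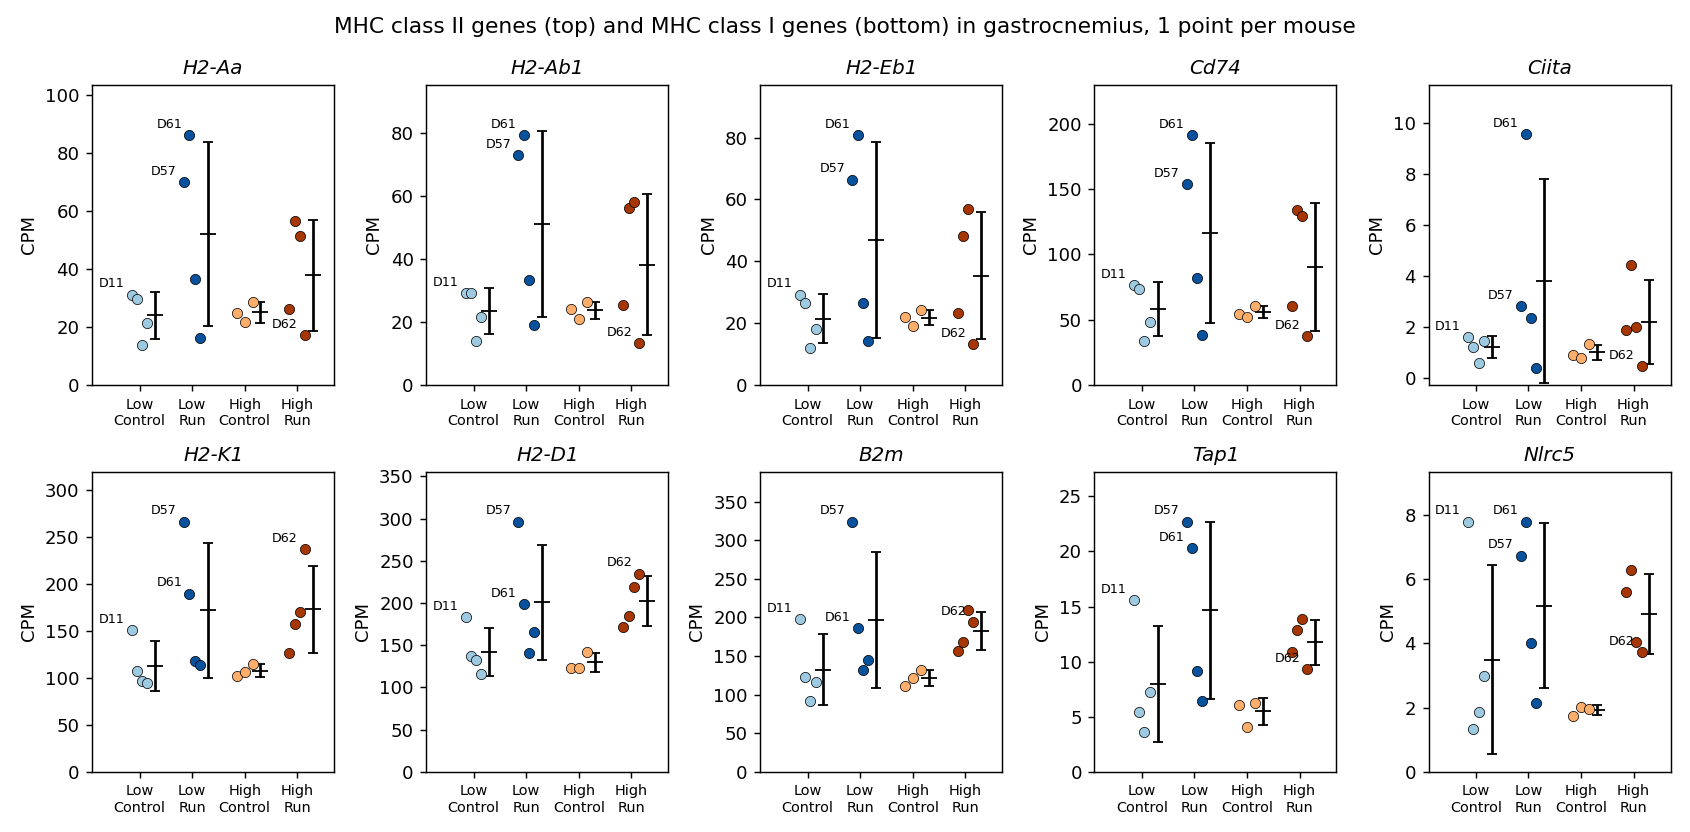
CPM of each member in each of the 15 mice (points; linear axis) with the mean and SD of each group (bars), class II genes above and class I genes below. In Low Run mice the class II points spread widely, with D57 and D61 high and the others near the controls, while the 4 High Run points lie above all 3 High Control points for every class I gene.

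In High mice the same 10 members also had higher means after running, but here it was the class I genes that separated the groups. H2-K1 had 102, 106 and 115 CPM in High Control mice D23, D25 and D67 and 127, 157, 170 and 236 CPM in High Run mice D49, D52, D53 and D62. H2-D1 had 123, 123 and 142 CPM in the controls and 171, 184, 219 and 235 CPM in the runners. B2m had 111, 121 and 131 CPM in the controls and 157, 168, 210 and 194 CPM in the runners. Every runner exceeded every control in all 3 genes, and the controls lay close together. The log2 fold changes were 0.68 ± 0.28 for H2-K1, 0.64 ± 0.22 for H2-D1 and 0.59 ± 0.29 for B2m, each with an FDR of 0.956 in edgeR.

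Tap1 had 6.10, 4.10 and 6.27 CPM in the High controls and 10.9, 12.9, 13.9 and 9.35 CPM in the runners. Nlrc5 had 1.74, 2.03 and 1.96 CPM in the controls and 5.60, 6.30, 4.03 and 3.72 CPM in the runners. Both genes were likewise without overlap between the groups, with log2 fold changes of 1.10 ± 0.46 for Tap1 and 1.36 ± 0.52 for Nlrc5. For Nlrc5 this is a mean of 1.91 ± 0.153 CPM (SD, n = 3) against 4.91 ± 1.24 CPM (n = 4).

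The class II genes of the High mice split the runners instead. H2-Aa had 24.9, 21.6 and 28.7 CPM in the controls and 26.1, 56.5, 51.5 and 17.1 CPM in runners D49, D52, D53 and D62. H2-Ab1 had 24.2, 20.9 and 26.2 CPM in the controls and 25.4, 56.1, 57.9 and 13.3 CPM in the runners. H2-Eb1 had 21.9, 19.2 and 24.2 CPM in the controls and 23.2, 48.1, 56.9 and 13.3 CPM in the runners. D52 and D53 were well above the controls, D49 was at their level and D62 was below them all.

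Cd74 had 54.8, 51.9 and 60.9 CPM in the controls and 60.3, 134, 130 and 37.7 CPM in the runners. Ciita had 0.89, 0.78 and 1.34 CPM in the controls and 1.89, 4.42, 1.98 and 0.47 CPM in the runners. D62 was again below every control, and for Ciita the other 3 runners were above them. The log2 fold changes of the 5 class II genes ran from 0.59 ± 0.48 for H2-Aa to 1.13 ± 0.79 for Ciita, with unadjusted p between 0.169 and 0.238, and leaving out D62 moved them to between 0.83 and 1.47, where H2-Ab1 came under an unadjusted p of 0.05.

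None of the 10 members passed the FDR of 0.1 in High Run against High Control with any of the 4 methods. There edgeR called 0% of the 16920 tested genes and DESeq2 0.0934% of the 16067 genes to which it gave an FDR. The edgeR FDR of the members was 0.956 to 0.958. At an unadjusted p under 0.05, 4 of 10 were higher (H2-K1, H2-D1, Tap1 and Nlrc5), against 3.28% of all tested genes. The log2 fold change was above 0 in all 10 members and in 57.2% of all tested genes, with medians of 0.69 and 0.05. All 5 class I members and 0 of 5 class II members were higher without overlap, against 3.47% of all tested genes. The two-sided exact permutation p was 0.0286 for H2-D1, B2m, Tap1 and Nlrc5, the smallest that 3 against 4 mice can give, and 0.0571 for H2-K1, and it was 0.371 to 0.4 for the class II members. The count of 4 was 1 without control D23 and 2 without control D25, 3 or more without any other mouse, and 8 with voom's quality weights.

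**Figure D2:**
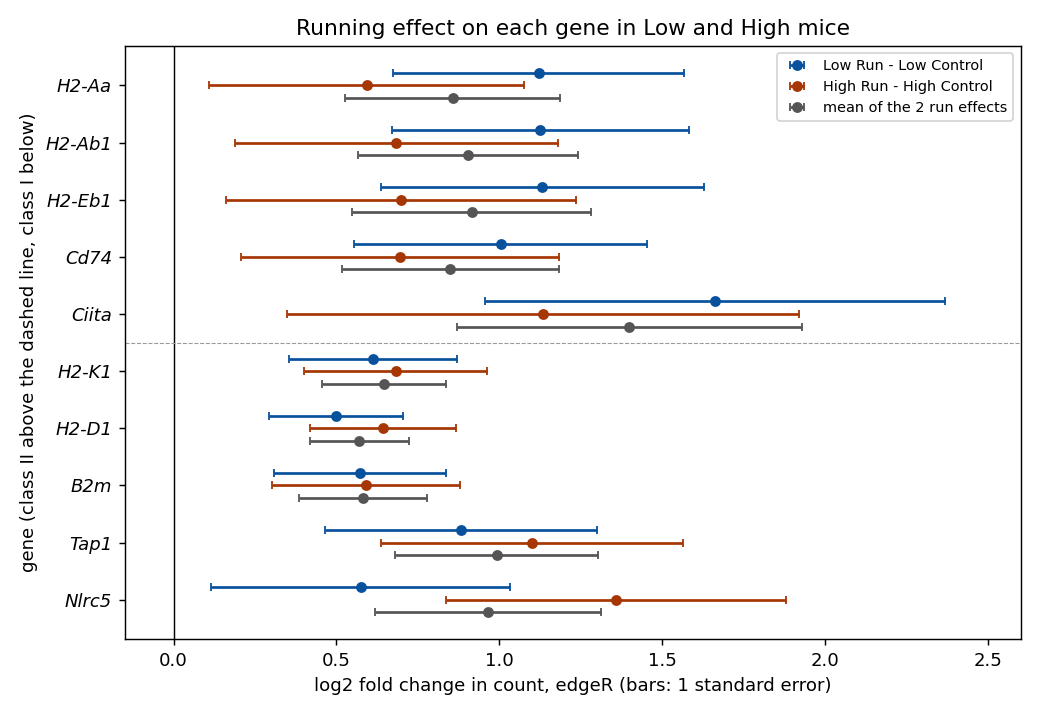
Log2 fold change of each member (edgeR, points) with 1 SE (bars) for Low mice, High mice and the mean of both running effects. All 30 points lie above 0, the class II genes have wider bars than H2-K1, H2-D1 and B2m, and the bars of Low and High mice overlap for every gene.

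Whether frail mice responded differently was tested by the Frailty × Run interaction, the running effect in High mice minus that in Low mice. The 5 class II members had differences below 0, from -0.53 ± 0.65 (H2-Aa) and -0.53 ± 1.04 (Ciita) to -0.31 ± 0.66 (Cd74) on the log2 scale. The 5 class I members had differences above 0, as had 53.1% of all tested genes, from 0.02 ± 0.39 (B2m) to 0.78 ± 0.69 (Nlrc5). No member passed an unadjusted p of 0.05 (p from 0.272 to 0.96), against 7.93% of all tested genes in either direction, and none passed the FDR of 0.1 in edgeR or DESeq2. The SE of these differences ran from 0.30 to 1.04, and without D61 the differences of Cd74 and Ciita were 0.05 and 0.51. With voom's quality weights 4 of the 5 class II differences were above 0 (0.014 for H2-Ab1, 0.063 for H2-Eb1, 0.13 for Cd74 and 0.42 for Ciita), so the shared direction depended on the method.

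Between sedentary mice, High against Low, none of the 10 members passed an unadjusted p of 0.05 (p from 0.117 to 0.968), against 5.86% of all tested genes in either direction, or the FDR of 0.1 in edgeR or DESeq2. Log2 differences were within 0.14 of 0 for H2-Aa, H2-Ab1, H2-Eb1, Cd74, H2-K1, H2-D1 and B2m. Nlrc5 (-0.87 ± 0.52) and Tap1 (-0.54 ± 0.46) had the lowest values, and without Low Control D11 these were -0.12 and 0.01. Between the running groups, High against Low, again 0 of 10 members passed an unadjusted p of 0.05 (p from 0.252 to 0.976), against 2.51% of all tested genes, or the FDR of 0.1 by either tool. Means were close for H2-K1 (173 ± 46.3 against 172 ± 71.8 CPM) and H2-D1 (202 ± 29.5 against 201 ± 68.1 CPM), with the larger SD in Low Run mice. The 5 class II members had lower means in High Run mice, with log2 differences from -0.80 ± 0.68 (Ciita) to -0.37 ± 0.45 (Cd74), and without D61 the difference of Ciita was 0.23. B2m, Tap1 and Nlrc5 had -0.11 ± 0.26, -0.32 ± 0.41 and -0.08 ± 0.45.

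Since all members had higher means in both frailty groups, the mean of both running effects was also tested, a contrast that was added after the data had been seen and that reuses the same mice. All 10 members had an unadjusted p under 0.05 in edgeR, against 5.6% of all tested genes that were higher, and all 10 were above 0, against 53.4%. Members varied together across mice (correlations are given further on). Neither these counts nor those within each frailty group are therefore over independent genes. None of the 10 passed the FDR of 0.1 in edgeR (0.413 to 0.510), where 0% of all tested genes did. None passed it in DESeq2, where 0.529% of the 20048 genes with an FDR did. The log2 fold changes were 0.57 ± 0.15 for H2-D1, 0.58 ± 0.20 for B2m and 0.65 ± 0.19 for H2-K1. They were 0.97 ± 0.35 for Nlrc5 and 0.99 ± 0.31 for Tap1, between 0.85 ± 0.33 and 0.92 ± 0.37 for the class II chains with Cd74, and 1.40 ± 0.53 for Ciita. With run labels exchanged within each frailty group in all 2450 arrangements, two-sided exact permutation p was 0.00449 for H2-D1, 0.0106 for H2-K1, 0.0114 for B2m, 0.0131 for Tap1 and 0.022 for Nlrc5, but 0.0963 to 0.123 for the 5 class II members. Without D61 the class I members kept p between 0.00344 and 0.0343 in edgeR, and of the class II members H2-Ab1 was under 0.05 (0.0428) and the other 4 were between 0.0547 and 0.0743.

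**Figure D3:**
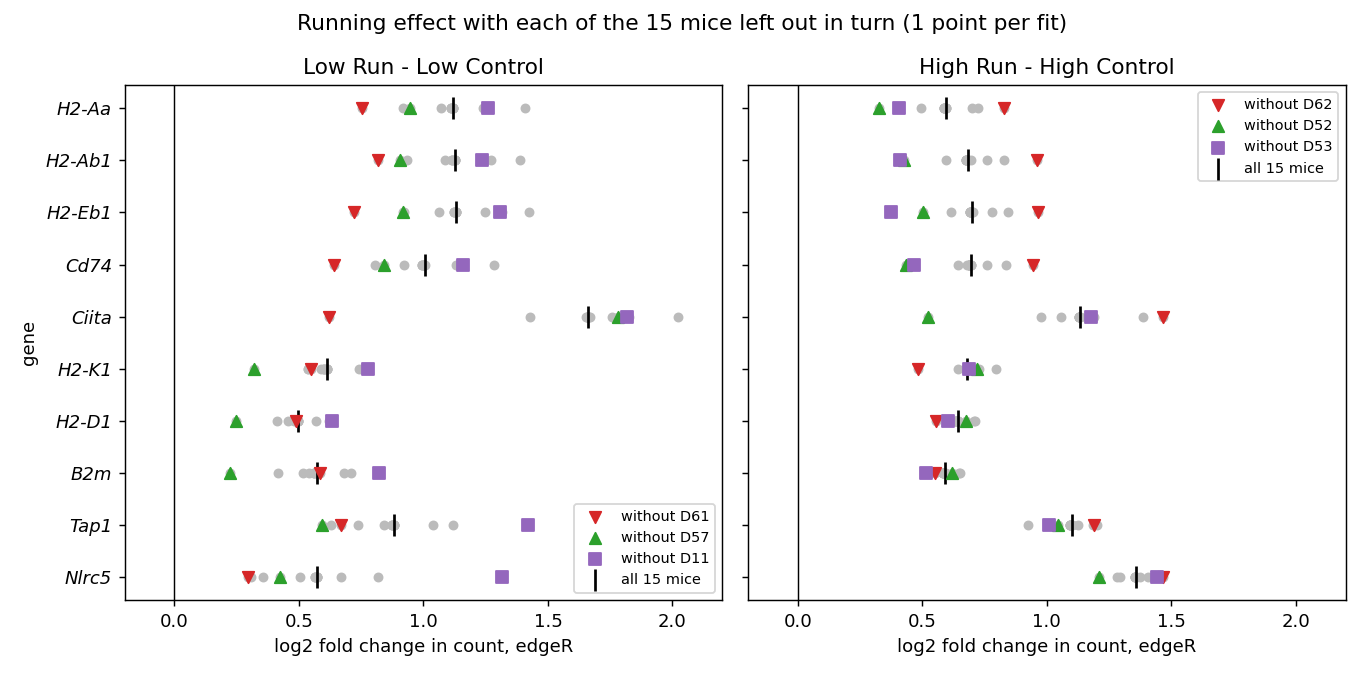
Log2 fold change of each member in Low mice (left) and High mice (right) when each of the 15 mice was left out in turn (points; 3 mice marked in colour, bar for all mice). All values lie above 0, Ciita moves from 1.66 to 0.62 without D61, and H2-K1, H2-D1 and B2m in Low mice move to between 0.22 and 0.32 without D57.

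Summed over H2-Aa, H2-Ab1, H2-Eb1 and Cd74, class II RNA ranged from 73.2 to 166 CPM in Low Control, from 87.8 to 438 in Low Run, from 114 to 140 in High Control and from 81.4 to 296 CPM in High Run mice. Summed over H2-K1, H2-D1 and B2m, class I RNA ranged from 321 to 532, from 390 to 886, from 336 to 389 and from 455 to 666 CPM in the same groups. The ratio of the class I to the class II sum was 8.18 in High Run mouse D62, which had the highest class I and the lowest class II sum of its group, and 1.31 to 4.84 in the other 14 mice. At the other end stood D61, with the lowest ratio of 1.31, and D57 was highest of all mice in class I.

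**Figure D4:**
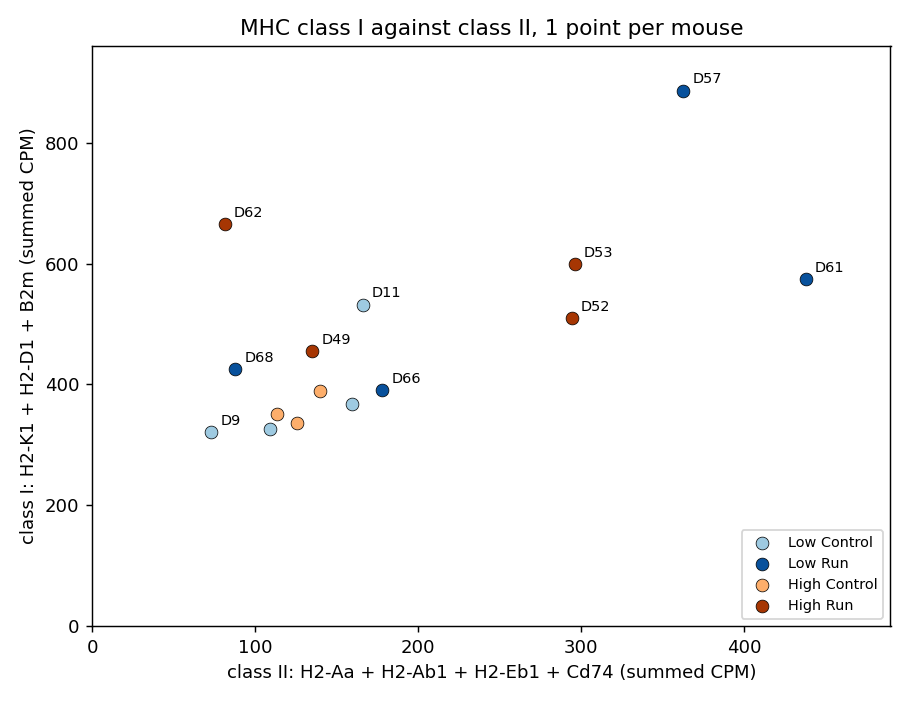
Summed CPM of class I genes (vertical) against class II genes (horizontal), 1 point per mouse, both axes linear. D62 lies high in class I (666 CPM) and low in class II (81.4 CPM), apart from the other mice, and D57 and D61 lie farthest right.

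Across the 15 mice the class II chains and Cd74 were correlated at Pearson r = 0.986 to 0.995 on log2 CPM, and H2-K1, H2-D1 and B2m at 0.923 to 0.961. Between these blocks r was 0.529 to 0.671, and 0.732 to 0.888 without D62 (n = 14) or 0.468 to 0.690 without D61 (n = 14). Ciita was correlated at 0.883 to 0.915 with the class II genes and at 0.361 to 0.448 with the class I genes. Without D61 these ranges for Ciita were 0.846 to 0.892 and 0.323 to 0.457. Nlrc5 was correlated at 0.913 with Tap1, at 0.686 to 0.751 with the class I genes and at 0.629 to 0.669 with the class II genes, so its pattern was not that of a single block. After the mean of each group was subtracted, r was 0.856 to 0.900 for Ciita with class II and 0.108 to 0.262 with class I genes, and for Nlrc5 0.452 to 0.615 with class I and 0.551 to 0.615 with class II genes. Tap1 and Psmb9, which share the promoter stretch printed above, had r = 0.943, beside the 0.913 of Tap1 with Nlrc5, which lies on another chromosome. These values are descriptions, since the mice share 4 groups and each pair of genes is read from the same libraries, and no test was made.

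By the same measure, and leaving out the other members, the tested genes whose pattern was most like that of H2-Ab1 were Phf11b (r = 0.928), Slamf9 (0.916), Fndc10 (0.906), the class II accessory gene H2-DMb1 (0.894) and Chst14 (0.890). For H2-K1 they were H2-Q4 (0.899), H2-T22 (0.889), Rras (0.881), H2-T23 (0.878) and Tap2 (0.854), of which only Rras is in none of the lists used here. For Ciita they were Map4k1 (0.941), Itgax (0.932), which encodes CD11c, a marker of dendritic cells, Arl4c (0.917), Myo1g (0.912) and Rasgrp1 (0.898). For Nlrc5 they were the chemokine gene Ccl8 (0.918), Gbp7 (0.917), Mcoln2 (0.910), the class I heavy chain H2-Q7 (0.904) and Ifit1 (0.896). Each r is over 15 mice. They include D61, which had the highest Ciita (9.58 CPM) and Itgax (7.17 CPM) levels of all mice, and no such ranking is given without it.

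The accessory genes of class II loading followed the class II chains in part. Of 10 listed, H2-Ea had no row under that symbol and 7 were tested. In Low Run against Low Control 4 of the 7 were higher at an unadjusted p under 0.05 (5.92% of all tested genes), in High Run against High Control 2 (3.28%), and for the mean of both effects 6 (5.6%), all with FDR above 0.1 in edgeR. Without D61 the count in Low mice was 1 (Ifi30, a thiol reductase of endosomes), where 5.15% of all tested genes were higher. H2-DMa, a chain of the peptide exchange factor H2-DM, went from 3.37 ± 1.44 to 6.31 ± 2.43 CPM in Low mice (log2 fold change 0.91 ± 0.37, FDR = 0.358) and from 3.40 ± 0.386 to 4.96 ± 2.23 CPM in High mice. H2-Ob, a chain of the H2-DM inhibitor H2-O that B cells make, had 8.58 CPM in D61 and 0.08 to 1.88 CPM in the other mice, and H2-DMb2 had 4.90 CPM in D61 and 0.21 to 1.58 CPM elsewhere. Their log2 fold changes in Low mice were 2.98 and 2.53, and 1.23 and 1.05 without D61.

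Ctss, encoding cathepsin S, the protease that trims the invariant chain, had 6.29, 6.94 and 9.43 CPM in High Control mice and 28.8, 19.6, 31.4 and 17.98 CPM in High Run mice. All 4 runners were well above the highest control. The log2 fold change in edgeR was 1.70 ± 0.33 in High mice (FDR = 0.956; exact permutation p = 0.0286), beside 0.61 ± 0.29 in Low mice (FDR = 0.373; exact permutation p = 0.2). In both comparisons edgeR called 0% of all tested genes. The paper, using DESeq2 at an FDR under 0.1, lists Ctss among the genes raised by running in its High group alone. The interaction for Ctss was 1.08 ± 0.44 (FDR = 0.6 in edgeR), and its mean was lower in High than in Low controls (-0.75 ± 0.33, FDR = 0.704), so the low High Control values enter both numbers. Ctss is also made by macrophages, whose markers are given further on.

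Proteins that assemble on the class II promoter are partners of Ciita at the X and Y boxes. Their 7 listed genes (Rfx5, Rfxap, Rfxank, Nfya, Nfyb, Nfyc, Creb1) were all tested. In Low mice 0 of 7 passed an unadjusted p of 0.05 in edgeR, with log2 fold changes of -0.07 to 0.16. Of all 16920 tested genes, 1002 were higher and 1272 lower at that p. In High mice 1 of 7 passed, Nfyb, lower by these values (29.5 against 37.1 CPM, log2 fold change -0.33 ± 0.16, exact permutation p = 0.0286). There 322 of all 16920 tested genes were lower at that p. None of the 7 passed the FDR of 0.1 in edgeR.

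Among 10 tested class I heavy chains outside the member list, 2 were higher at an unadjusted p under 0.05 in Low mice (5.92% of all tested genes) and 3 in High mice (3.28%), and 5 were higher without overlap in High mice (3.47%). Without D61 the count in Low mice was 1, H2-T23. H2-T23, which encodes Qa-1, a ligand of inhibitory receptors on natural killer cells, went from 17.0 ± 3.71 to 28.2 ± 10.9 CPM in Low mice (0.73 ± 0.24, FDR = 0.358) and from 16.1 ± 2.56 to 24.5 ± 5.77 CPM in High mice (0.60 ± 0.27, FDR = 0.956). H2-Q4 had log2 fold changes of 0.44 ± 0.25 in Low and 0.73 ± 0.28 in High mice. Of 12 genes of peptide supply and loading, 4 were higher in Low mice and 3 in High mice at that p, against the same 5.92% and 3.28% of all tested genes, and 3 in Low mice without D61 (Psmb8, Psmb9 and Psmb10). The immunoproteasome subunit Psmb8 had log2 fold changes of 0.95 ± 0.37 in Low and 0.89 ± 0.40 in High mice, and Psmb9 of 0.99 ± 0.38 and 0.92 ± 0.42, with p between 0.0197 and 0.0458. The chaperones Calr, Canx and Pdia3, which serve many proteins, did not pass an unadjusted p of 0.05 in either frailty group.

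Of the interferon-γ pathway, Ifng itself had at most 0.247 CPM in every mouse and was not tested. Of the 8 tested genes described here, 1 was higher at an unadjusted p under 0.05 in Low mice, the feedback inhibitor Socs1 (0.369 ± 0.363 to 1.40 ± 0.431 CPM), against 5.92% of all tested genes, and 0 of 8 were in High mice, against 3.28%, in edgeR. Socs1 was also the 1 gene higher in Low mice without D61. Socs1 was without overlap in Low mice. Irf1, which activates class I promoters, had log2 fold changes of 0.39 ± 0.30 in Low and 0.22 ± 0.32 in High mice. None of these lists held a gene with an FDR under 0.1 in edgeR.

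Some markers of immune cells also differed after running. In Low Run against Low Control, 3 of 4 tested B cell markers, 3 of 3 tested T cell markers, 2 of 6 dendritic cell markers, 1 of 2 monocyte markers (Ly6c2), 1 of 1 tested NK cell marker (Nkg7) and the leukocyte gene Ptprc (from 5.66 to 11.9 CPM) were higher at an unadjusted p under 0.05, against 5.92% of all tested genes, and of 9 macrophage markers 1 was higher (C1qa) and 1 lower (Cd163). Without D61 these counts were 0 of 4 for B cells, 1 of 3 for T cells (Cd3e), 0 of 4 for dendritic cells, 1 of 2 for monocytes and 1 of 9 for macrophages, no NK cell marker had enough counts, and Ptprc did not pass (log2 fold change 0.58). Ptprc had 22.1 CPM in D61 and 5.04 CPM in D57, the other runner with high class II levels. In High Run against High Control, 5 of 9 macrophage markers (Cd68, C1qa, C1qb, C1qc and Lyve1), 1 of 3 T cell markers (Cd3e), 1 of 6 dendritic cell markers (Itgax), 1 of 2 monocyte markers (Ly6c2), 0 of 1 NK cell marker and 0 of 4 B cell markers were higher, against 3.28% of all tested genes. The summed macrophage markers ranged from 94.8 to 178 CPM in Low Control, 122 to 183 in Low Run, 68.6 to 118 in High Control and 110 to 221 CPM in High Run mice.

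For B cells, the 5 markers used summed to 69.1 to 467 CPM in Low Control, 36.2 to 849 in Low Run, 135 to 486 in High Control and 118 to 218 CPM in High Run mice, nearly all of it Ighm, the immunoglobulin heavy chain that plasma cells also make. Without Ighm the sums were 0.207 to 1.19, 0.504 to 16.4, 0.295 to 1.47 and 1.23 to 2.48 CPM, and Cr2 was at 0 in all Low Control mice. The 5 T cell markers summed to 0.477 to 1.06, 0.802 to 13.6, 0.295 to 0.927 and 1.35 to 2.12 CPM, and the 7 dendritic cell markers to 9.98 to 11.8, 9.62 to 18.6, 7.66 to 10.0 and 8.60 to 14.1 CPM. D61 was the highest mouse in each of these 3 sums. High class II levels were also found in mice whose B cell sum without Ighm was well below that of D61: D57 had 0.504, D52 1.496 and D53 2.48 CPM, with class II sums of 363, 294 and 296 CPM. D62, with the lowest class II sum of its group, was also the lowest High Run mouse for macrophage, dendritic cell, T cell and Ptprc levels, while its class I sum was the highest. D49 went the other way. It had the highest macrophage sum (221 CPM) and Ptprc level (9.80 CPM) of the High Run mice, with a class II sum of 135 CPM, within the range of the High controls. The part of these cells in the class I and class II results was not tested.

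**Figure D5:**
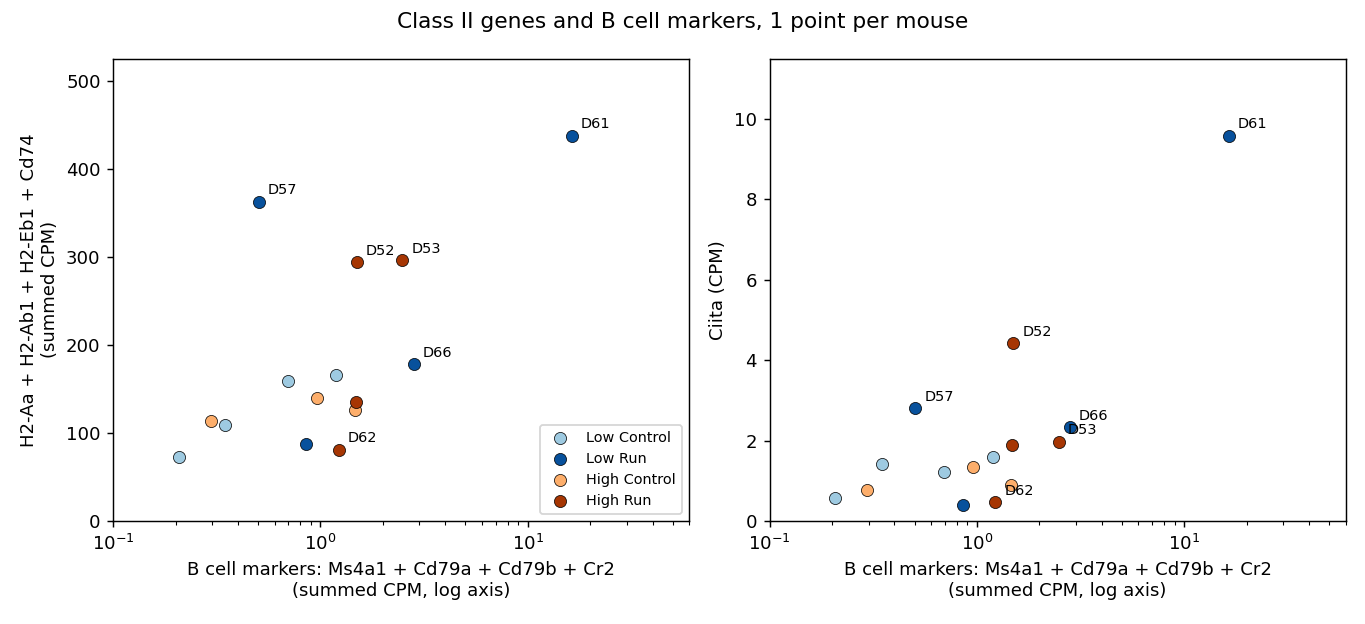
Summed CPM of H2-Aa, H2-Ab1, H2-Eb1 and Cd74 (left) and CPM of Ciita (right) against the summed CPM of 4 B cell markers on a log axis, 1 point per mouse. D61 stands alone at 16.4 CPM of B cell markers, with the highest class II sum (438 CPM) and Ciita level (9.58 CPM), while D57, at 0.504 CPM of B cell markers, has the second highest class II sum of 363 CPM.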

How the data were processed

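Gastrocnemius RNA of 15 mice had been sequenced. Alignment to mm10 by the authors used STAR 2.7.9a, and the authors counted uniquely aligned proper pairs on the strand of each non-mitochondrial Ensembl gene with featureCounts. The deposited counts are whole numbers without normalization, and the authors also deposited a variance-stabilizing transformation by DESeq2 of the same counts, on a log2-like scale. Totals were 19395125 to 30699216 counts per mouse.

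Genes were kept by filterByExpr, normalized by TMM and tested in edgeR 4.0.16 (R 4.3.3, limma 3.58.1) by the quasi-likelihood F-test with 1 mean per group over all 15 mice, Benjamini-Hochberg over 16920 genes, at an FDR of 0.1. SE is the log2 fold change over the square root of F. CPM are counts scaled to 1000000 of the TMM-scaled total, and levels per kb use the merged exon length of each gene in GENCODE M21. Exact permutation tests were two-sided on log2(CPM + 0.5) in Python 3.11.15. Contrasts share control mice, so they are not independent. All p-values measure the spread between mice.

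Alternatives were DESeq2 1.42.0, RLE normalization, no count filter, a fit of only the 2 groups compared, voom with quality weights, limma on the transformed values, an FDR of 0.05, and leaving out each mouse. The counts over gene lists without D61 were added after the data had been seen. Methods were tested on simulated data, with 100 genes changed per size in High Run mice. At an FDR under 0.1, edgeR recovered 45 of those changed by a log2 of 1 and 82 of those changed by 2, with 13 false calls. DESeq2 recovered 55 and 90, with 49 false calls. In the unchanged comparison of Low mice edgeR made 0 calls and DESeq2 made 7. Counts of same-group mice differed far beyond sampling noise (chi-square per degree of freedom of 15.9 to 209), so none was a repeated library. The members and the gene lists were chosen with earlier results of these data known. All members were described in every mouse. Genes of the other lists were described by counts, with values for some that passed an unadjusted p of 0.05 or that describe a list. Promoters were RefSeq windows of GRCm38.p6. Some listed genes are not reported here and were left out of the list counts and sums.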

Additional observations from a re-analysis of the deposited data

Results flagged for a closer look

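No value of the 10 members lay far from the rest of its group by Dixon's criterion for groups of 4 mice. Of 285 groups of 4 mice for 95 tested genes of the lists, 16 held such a value, and about 1 in 20 groups would by chance. Of the 16, 7 were in Low Run mouse D61, all as its highest value: H2-DMb2 (4.90 CPM, next 0.725), H2-Ob (8.58, next 1.41), Itgax (7.17, next 1.93), Cd79a (5.22, next 0.639), Cd79b (6.27, next 1.15), Cd3e (3.17, next 0.639) and Cd4 (4.47, next 0.341 CPM). Low Control mouse D11 was highest for the heavy chain H2-Q6 (29.7 CPM, next 13.9), the macrophage scavenger receptor Cd163 (24.8, next 17.2) and Ighm (466, next 76.7 CPM). High Run mouse D53 was highest for H2-Q6 (27.6, next 21.6 CPM). Low Run mouse D57 was highest for the immunoproteasome subunit Psmb10 (25.7, next 13.4 CPM) and lowest for Erap1 (20.1, next 23.5), Canx (111, next 139) and the endothelial marker Kdr (23.2, next 31.03 CPM). Low Run mouse D66 was highest for Col1a1 (309, next 86.1 CPM).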

How the results depend on the processing

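None of the 10 members passed the FDR of 0.1 in the 5 planned comparisons under any alternative. The number at an unadjusted p under 0.05 was less stable. In Low Run against Low Control, 8 in edgeR became 5 in a fit of only the 2 groups, 3 by limma on the transformed values and 0 with voom's quality weights, and 0 to 10 when single mice were left out. In High Run against High Control, 4 became 8 with quality weights and 1 to 5 when mice were left out. Between controls, 0 became 1 without a count filter and 0 to 1 when mice were left out. For the mean of both running effects, 10 became 5 on the transformed values and 6 to 10 when mice were left out. There, without a count filter, 1 member was called (Tap1, log2 fold change 0.98, FDR = 0.0922). The cause was not tested.

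Signs turned for some differences between frailty groups, none of which had passed an unadjusted p of 0.05. With quality weights the interaction was 0.014 for H2-Ab1, 0.063 for H2-Eb1, 0.13 for Cd74 and 0.42 for Ciita. High minus Low Control was -0.068 for H2-Aa, -0.10 for H2-Ab1 and -0.11 for H2-Eb1, and High minus Low Run was 0.014 for B2m and 0.21 for Nlrc5. On the transformed values Cd74 was 0.019 between controls and Nlrc5 0.017 between runners. H2-K1 between runners was -0.0017 with DESeq2, -0.00050 with RLE normalization and -0.0043 without a filter. Leaving out single mice gave interaction values of -0.60 to 0.045 for Cd74, -1.13 to 0.51 for Ciita, -0.12 to 0.36 for H2-K1, -0.24 to 0.37 for B2m and -0.33 to 0.51 for Tap1. Between controls it gave -0.14 to 0.20 for H2-Aa, -0.17 to 0.14 for H2-Ab1, -0.18 to 0.20 for H2-Eb1, -0.25 to 0.10 for Cd74, -0.14 to 0.11 for H2-K1, -0.22 to 0.0080 for H2-D1, -0.28 to 0.13 for B2m and -0.79 to 0.0074 for Tap1. Between runners it gave -1.41 to 0.23 for Ciita, -0.19 to 0.30 for H2-K1, -0.12 to 0.26 for H2-D1, -0.26 to 0.24 for B2m and -0.34 to 0.19 for Nlrc5. The running effects within Low and within High mice were above 0 for all 10 members in each of these fits that left out a mouse.

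No paired analysis was possible because each mouse has its own number in the labels. The least counted member, Ciita, had 8 counts in its lowest library, and 3 or 4 mice per group limit the precision of every value.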
